A study of Rattus norvegicus with 10 samples.

Results

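The genes described here are the 2 corticosteroid receptors of the brain and 7 further genes, chosen by name from the deposited count table: Nr3c1, Nr3c2, Fkbp5, Sgk1, Tsc22d3, Tsc22d4, Zbtb16, Klf9 and Hsd11b1. Most of the 7 are known for their response to, or control of, corticosteroids, while Tsc22d4 is a family relative of the response gene Tsc22d3. All 9 were found among 17168 rows, and all 9 passed the filter on low counts that left 12355 genes tested. RNA came from the left hippocampus of 11-month-old male TgF-344AD rats, 1 library per rat. Ibudilast blocks phosphodiesterases, the enzymes that break down cAMP and cGMP. The 5 ibudilast rats ate chow with ibudilast for 6 months, starting when they were 5 months old, and the 5 untreated rats received plain rodent chow. All 10 rats carried the transgenes of this Alzheimer's disease model, which in this line include a mutant human APP under a mouse prion promoter, and no animals without the transgenes were analysed here. Tissue of the ibudilast rats was kept in RNAlater-ICE and that of the untreated rats was not, so drug and storage cannot be told apart in any difference given here.

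Corticosterone, the main glucocorticoid of the rat, crosses into brain cells and binds a high-affinity mineralocorticoid receptor (MR, gene Nr3c2) and a lower-affinity glucocorticoid receptor (GR, gene Nr3c1). Unbound GR sits in the cytoplasm in a complex of HSP90 and immunophilins such as FKBP5. On hormone binding it moves to the nucleus and binds DNA elements near target genes, and Fkbp5, Tsc22d3, Sgk1, Zbtb16 and Klf9 are among the targets used as readouts of receptor activity in brain. The hippocampus is rich in both receptors and takes part in the negative feedback that ends a stress response.

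In ibudilast rats the GR gene Nr3c1 was 0.652 times as abundant as in untreated rats, and the leucine zipper genes Tsc22d3 and Tsc22d4 were 1.31 and 1.44 times as abundant. These 3 of the 9 genes passed edgeR's quasi-likelihood test at an adjusted p under 0.05, 2 higher and 1 lower, and 6 did not pass. Over all 12355 genes tested 47.1% passed, 24.3% higher and 22.8% lower. The groups did not overlap for the same 3 genes and for 33.4% of all genes tested. The median log2 fold change of the 9 genes was −0.08, beside 0.02 for all genes tested. The MR gene Nr3c2 differed by −0.89 on the log2 scale and did not pass with all rats (adjusted p = 0.0667 by edgeR). Fkbp5 and Klf9, which glucocorticoids induce in brain, differed by −0.08 and −0.06 on the log2 scale with all rats and by −0.23 and −0.17 without untreated replicate 3, and passed in neither case.

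**Figure D1:**
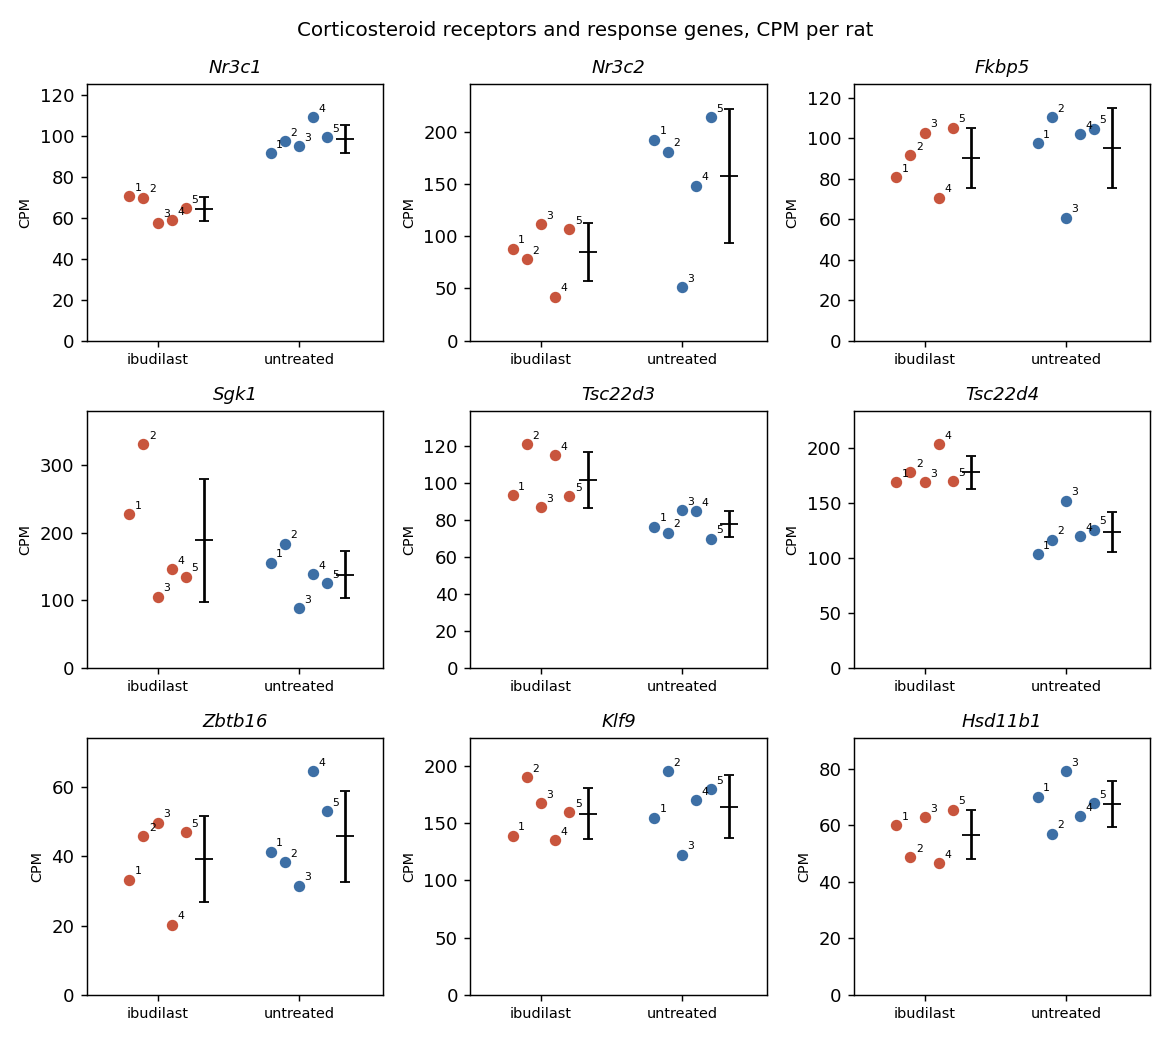
CPM of the 9 genes, counts scaled to library size, in each rat, with ibudilast rats on the left and untreated rats on the right of each panel; numbers beside points are replicates, and the bar is the mean ± SD of 5 rats. The groups do not overlap for Nr3c1, Tsc22d3 and Tsc22d4, and untreated replicate 3 has 51.0 CPM of Nr3c2, below the other untreated rats.

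Libraries held 14806807 to 17114238 counts in the ibudilast group and 15984438 to 18533520 counts in the untreated group. Markers of hippocampal neurons and glia were detected, with 1 marker of the dentate granule cell list, Tdo2, at 0 in all 10 libraries. Several libraries stood apart by their markers, as the mean log2 CPM of a list. Ibudilast replicate 4 had 5.16 for excitatory neuron markers, against 6.88 to 7.30 in the other ibudilast rats, and untreated replicate 3 had 7.05, against 7.68 to 7.92 in the other untreated rats. Markers of choroid plexus and ependyma were at 7.16 in ibudilast replicate 1 and 7.36 in untreated replicate 2, and at most 3.50 in the other rats. Some of the values that moved without these libraries are given beside the result.

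The GR gene Nr3c1 encodes the receptor that carries most of the response to high corticosterone. It had 70.5, 69.8, 57.6, 58.8 and 64.8 CPM in ibudilast replicates 1 to 5, against 91.7, 97.6, 95.0, 109 and 99.7 CPM in untreated replicates 1 to 5. Every ibudilast rat lay below every untreated rat, which was so for 15.4% of all genes tested. The means were 64.3 ± 6.01 CPM in ibudilast rats and 98.7 ± 6.69 CPM in untreated rats (SD, n = 5 each), and Nr3c1 fell by 0.62 ± 0.08 on the log2 scale (SE, adjusted p = 1.61e-04 by edgeR's quasi-likelihood test). Of the 9 genes Nr3c1 had the lowest spread among untreated rats, with a coefficient of variation of 6.78%. It is also the only one of the 9 whose expected counts were not whole numbers, so that some of its reads were divided with other rows of the table.

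The MR gene Nr3c2 encodes the receptor that is largely occupied at resting corticosterone levels. It had 87.9, 77.9, 112, 41.9 and 107 CPM in ibudilast replicates 1 to 5, against 193, 181, 51.0, 148 and 214 CPM in untreated replicates 1 to 5. The groups overlapped through untreated replicate 3 alone, and within the ibudilast group replicate 4 was the lowest. The means were 85.2 ± 27.8 CPM in ibudilast rats and 157 ± 64.1 CPM in untreated rats (SD, n = 5 each). The log2 fold change was −0.89 ± 0.36 (SE), with a 95% interval of −1.69 to −0.08 and an adjusted p of 0.0667 by edgeR. Without untreated replicate 3 it was −1.14 (adjusted p = 0.00357), and without that rat and ibudilast replicate 4, a choice made after seeing the data, it was −0.94 (adjusted p = 3.64e-04 by edgeR). The 4 remaining ibudilast rats then averaged 96.1 ± 15.9 CPM and the 4 remaining untreated rats 184 ± 27.4 CPM (SD, n = 4 each).

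The rats lowest in Nr3c2 were also lowest of their groups in the mean log2 CPM of excitatory neuron, CA1, CA2 and CA3, and dentate granule cell markers. That was not so for interneuron markers. MR transcripts are known to be dense in hippocampal principal cells, above all in CA2. For the marker counts that follow, the shares of all genes tested were 24.3% higher and 22.8% lower. Of 6 tested CA1 markers 0 were higher, 1 lower and 5 did not pass. Of 7 tested CA2 and CA3 markers 0 were higher, 2 lower and 5 did not pass, with a summed level of 445 to 555 CPM in ibudilast rats and 328 to 727 CPM in untreated rats, where the lowest value was that of untreated replicate 3. By that sum ibudilast replicate 4, at 492 CPM, was the median of its group. Of 5 tested dentate granule cell markers 0 were higher and 3 lower, with sums of 123 to 232 CPM in ibudilast rats and 221 to 385 CPM in untreated rats. Of 10 excitatory neuron markers 0 were higher and 4 lower, with sums of 1398 to 6053 CPM in ibudilast rats and 5062 to 7865 CPM in untreated rats. Of 10 interneuron markers 1 was higher, 3 lower and 6 did not pass, with sums of 586 to 782 CPM in ibudilast rats and 579 to 887 CPM in untreated rats, and ibudilast replicate 4 and untreated replicate 3 had the highest sums of their groups. In bulk tissue fewer cells of a type and less RNA per cell cannot be told apart, and the part of these markers in the Nr3c2 and Nr3c1 values was not tested.

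The balance of the receptors within a rat was taken as log2 CPM of Nr3c2 minus log2 CPM of Nr3c1, which does not depend on library scaling. It compares groups and not the levels of the 2 genes, since CPM is not corrected for transcript length. It was 0.32, 0.16, 0.96, −0.49 and 0.72 in ibudilast replicates 1 to 5, against 1.07, 0.89, −0.90, 0.44 and 1.10 in untreated replicates 1 to 5. The means were 0.33 ± 0.56 in ibudilast rats and 0.52 ± 0.84 in untreated rats (SD, n = 5 each). The groups overlapped widely, with a difference of −0.19 (exact permutation test, two-sided, p = 0.659, adjusted over 2 such differences 0.786, smallest p possible 0.00794).

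**Figure D2:**
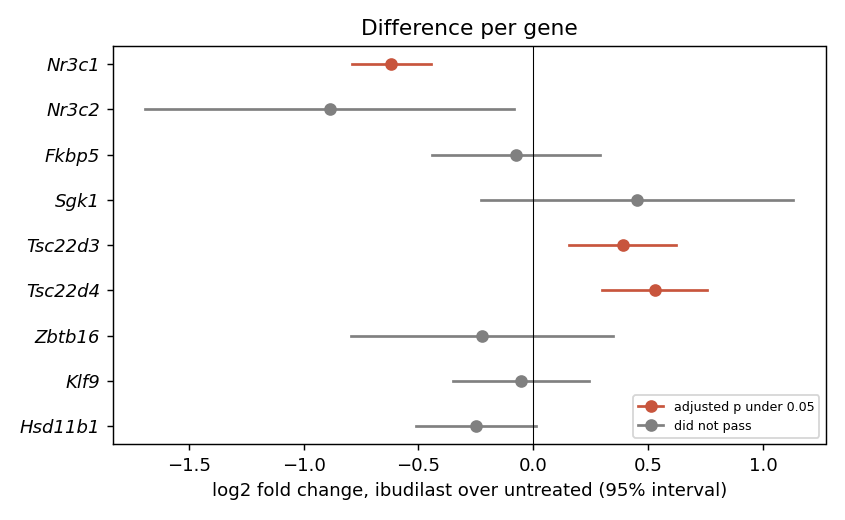
Log2 fold change of each of the 9 genes, ibudilast over untreated, with its 95% interval from the edgeR fit over 10 rats; red marks an adjusted p under 0.05. Nr3c1, Tsc22d3 and Tsc22d4 passed, and the interval of Nr3c2 runs from −1.69 to −0.08.

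Tsc22d3 encodes GILZ, the glucocorticoid-induced leucine zipper, a mediator of anti-inflammatory effects of the hormone in immune cells. It had 93.2, 121, 86.7, 115 and 92.9 CPM in ibudilast replicates 1 to 5, against 76.2, 73.0, 85.0, 84.5 and 69.7 CPM in untreated replicates 1 to 5. The lowest ibudilast rat lay just above the highest untreated rat, and 18.0% of all genes tested were separated in that direction. The means were 102 ± 15.1 CPM in ibudilast rats and 77.7 ± 6.85 CPM in untreated rats (SD, n = 5 each). Tsc22d3 rose by 0.39 ± 0.11 on the log2 scale (SE, adjusted p = 0.0116 by edgeR).

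Tsc22d4 encodes another leucine zipper protein of the TSC22 family. It had 169, 178, 169, 203 and 170 CPM in ibudilast replicates 1 to 5, against 103, 116, 152, 119 and 125 CPM in untreated replicates 1 to 5. The groups did not overlap, and the highest rat of each group was the one lowest in Nr3c2, ibudilast replicate 4 and untreated replicate 3. The means were 178 ± 14.8 CPM in ibudilast rats and 123 ± 18.0 CPM in untreated rats (SD, n = 5 each), and Tsc22d4 rose by 0.53 ± 0.10 on the log2 scale (SE, adjusted p = 0.00193 by edgeR). Oligodendrocyte markers were also higher, 6 of 12 with 0 lower, beside 24.3% higher and 22.8% lower for all genes tested. Their summed level was 15982 to 19006 CPM in ibudilast rats and 7822 to 15319 CPM in untreated rats with none at 0. With group means taken out, Pearson r over the 10 rats with the oligodendrocyte marker mean was −0.187 for Tsc22d4 and 0.113 for Tsc22d3. The largest r in size among the marker lists was −0.91 for Tsc22d4, with dentate granule cell markers. Ibudilast replicate 4 and untreated replicate 3, highest of their groups in Tsc22d4, were lowest of their groups in that marker mean, at 4.34 and 4.54. The r without these rats was not computed. For Tsc22d3 the largest r in size was −0.665, with CA1 markers. The part of oligodendrocyte or other cell content in the rise of both TSC22 genes was not tested.

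The other members of the TSC22 family in the table went the other way. Tsc22d2 averaged 12.8 CPM in ibudilast rats and 21.1 CPM in untreated rats and fell by 0.71 ± 0.11 on the log2 scale (SE, adjusted p = 4.59e-04 by edgeR). Tsc22d1, which was added after its values were seen, averaged 469 CPM in ibudilast rats and 552 CPM in untreated rats and fell by 0.24 ± 0.07 (SE, adjusted p = 0.0187 by edgeR), a call lost with library size alone (−0.17, adjusted p = 0.0949) and with a replicate block (−0.24, adjusted p = 0.0752). The gene rows do not separate transcripts, so which Tsc22d3 start site gave the additional reads is not known from these values.

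Promoter windows, 250 bases before to 50 bases after an annotated start, were available from RefSeq (build GRCr8) for 5 of the 9 genes, 10 windows in all. A full glucocorticoid response element (GNACANNNTGTNC, both strands) was in 0 of the 10 windows and in 0.44% of the 33469 rat windows, and its shorter arm TGTTCT was in 0 of the 10 and in 20.68% of all. The absence says only that these letters are not in these windows. The core of the cAMP response element (TGACG, either strand), searched because the drug blocks enzymes that break down cAMP, was in 2 of the 10 windows, for Klf9 and 1 of 3 Tsc22d3 starts, and in 21.2% of all windows. The GC box (GGGCGG, either strand), a site of Sp and KLF family factors, was in 7 of the 10 windows and in 33.06% of all. The windows printed here are the 2 that hold TGACG, of Tsc22d3, which rose, and of Klf9, which did not pass, and that of Fkbp5, which did not pass, with TGACG and GGGCGG or their reverse complements in capitals.
Tsc22d3, chrX:109009985-109010284, minus strand: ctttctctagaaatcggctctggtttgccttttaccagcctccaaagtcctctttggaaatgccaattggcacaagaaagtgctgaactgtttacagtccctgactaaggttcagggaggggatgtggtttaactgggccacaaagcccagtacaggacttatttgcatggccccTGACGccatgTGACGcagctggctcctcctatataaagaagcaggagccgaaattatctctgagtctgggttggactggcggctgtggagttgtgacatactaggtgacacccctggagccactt
Klf9, chr1:230126396-230126695, plus strand: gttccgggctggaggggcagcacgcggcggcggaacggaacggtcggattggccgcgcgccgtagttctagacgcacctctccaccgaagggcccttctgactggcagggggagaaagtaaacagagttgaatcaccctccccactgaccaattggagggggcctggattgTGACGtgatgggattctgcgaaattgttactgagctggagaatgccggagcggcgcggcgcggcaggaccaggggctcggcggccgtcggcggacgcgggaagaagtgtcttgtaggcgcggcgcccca
Fkbp5, chr20:6543506-6543805, minus strand: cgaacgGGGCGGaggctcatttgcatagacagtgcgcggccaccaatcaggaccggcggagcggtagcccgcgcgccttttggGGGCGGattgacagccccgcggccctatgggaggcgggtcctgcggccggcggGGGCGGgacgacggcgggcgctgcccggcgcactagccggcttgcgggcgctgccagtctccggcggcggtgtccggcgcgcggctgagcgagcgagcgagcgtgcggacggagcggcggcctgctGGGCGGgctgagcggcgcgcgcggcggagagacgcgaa
The Tsc22d3 window holds TGACG 75 and 65 bases before the start, the Klf9 window once, 79 bases before it, and the Fkbp5 window holds 4 GC boxes and no TGACG. The other 2 Tsc22d3 windows, not printed, hold 1 and 3 GC boxes and no TGACG, the same pattern as the Fkbp5 window. A match is a description of the letters and not of a site in use.

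Fkbp5 encodes an immunophilin that lowers the hormone affinity of GR and is itself strongly induced by GR. It had 80.7, 91.6, 103, 70.5 and 105 CPM in ibudilast replicates 1 to 5, against 97.4, 110, 60.7, 102 and 105 CPM in untreated replicates 1 to 5. The groups overlapped, and the lowest rats were again ibudilast replicate 4 and untreated replicate 3. The means were 90.1 ± 14.7 CPM in ibudilast rats and 95.0 ± 19.7 CPM in untreated rats (SD, n = 5 each). The log2 fold change was −0.08, with a 95% interval of −0.44 to 0.29 (adjusted p = 0.735 by edgeR), so these rats do not exclude a moderate difference either way. Without untreated replicate 3 it was −0.23 (adjusted p = 0.127) and without ibudilast replicate 4 −0.022 (adjusted p = 0.920 by edgeR).

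FKBP4, another immunophilin of the receptor complex, favours transport of GR to the nucleus. Its gene Fkbp4 averaged 168 CPM in ibudilast rats and 180 CPM in untreated rats (log2 fold change −0.10, adjusted p = 0.405 by edgeR). The within-rat difference, log2 CPM of Fkbp5 minus that of Fkbp4, was −0.91 ± 0.27 in ibudilast rats and −0.94 ± 0.19 in untreated rats (SD, n = 5 each). It ranged from −1.36 to −0.66 in ibudilast rats and from −1.24 to −0.72 in untreated rats, and the difference of 0.037 did not exceed the spread (exact permutation test, two-sided, p = 0.786).

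Klf9 encodes a Krüppel-like factor that glucocorticoid and thyroid hormone induce in neurons. It had 139, 190, 168, 135 and 159 CPM in ibudilast replicates 1 to 5, against 155, 195, 123, 170 and 180 CPM in untreated replicates 1 to 5. The ranges overlapped almost fully. The log2 fold change was −0.06, with a 95% interval of −0.35 to 0.24 (adjusted p = 0.762 by edgeR), and its sign turned in 2 alternatives. Without untreated replicate 3 it was −0.17 (adjusted p = 0.234) and without ibudilast replicate 4 −0.026 (adjusted p = 0.889 by edgeR).

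Zbtb16 encodes PLZF, a zinc finger repressor that glucocorticoids induce in many tissues. It had 33.2, 45.8, 49.7, 20.3 and 46.9 CPM in ibudilast replicates 1 to 5, against 41.3, 38.3, 31.5, 64.5 and 53.0 CPM in untreated replicates 1 to 5. The groups overlapped, with a log2 fold change of −0.22 and a 95% interval of −0.79 to 0.35 (adjusted p = 0.506 by edgeR). It was −0.36 without untreated replicate 3, −0.09 without untreated replicate 4 and −0.08 without ibudilast replicate 4, and passed in none of these (adjusted p = 0.276, 0.803 and 0.760 by edgeR).

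Sgk1 encodes the serum- and glucocorticoid-regulated kinase, which acts on ion channels and transporters. It had 227, 331, 105, 146 and 135 CPM in ibudilast replicates 1 to 5, against 155, 183, 88.0, 138 and 125 CPM in untreated replicates 1 to 5. Ibudilast replicates 1 and 2 were above every untreated rat and the other 3 were within the untreated range. The coefficient of variation was 48.4% in ibudilast rats and 25.7% in untreated rats, the first being the highest of the 9 genes in either group. The log2 fold change was 0.45, with a 95% interval of −0.23 to 1.13 (adjusted p = 0.252 by edgeR). Without ibudilast replicate 2 it was 0.15 (adjusted p = 0.663) and without untreated replicate 3 0.30 (adjusted p = 0.449 by edgeR).

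Hsd11b1 encodes the reductase that regenerates active corticosterone from its inert 11-keto form inside cells. It had 60.0, 48.7, 62.9, 46.5 and 65.5 CPM in ibudilast replicates 1 to 5, against 70.2, 57.0, 79.0, 63.2 and 67.9 CPM in untreated replicates 1 to 5. All 5 ibudilast rats lay below the untreated mean, but the ranges overlapped. The means were 56.7 ± 8.60 CPM in ibudilast rats and 67.5 ± 8.19 CPM in untreated rats (SD, n = 5 each), with a log2 fold change of −0.25 and a 95% interval of −0.51 to 0.01 (adjusted p = 0.107 by edgeR). Without untreated replicate 2, which carried choroid plexus markers, it was −0.33 (adjusted p = 0.0396), and with a replicate block −0.26 (adjusted p = 0.0460). It did not pass in the other 20 of 22 alternatives. Without ibudilast replicate 1, which carried these markers too, it was −0.27 (adjusted p = 0.119 by edgeR). Without all 4 libraries that stood apart it was −0.18 (adjusted p = 0.175 by edgeR).

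Among themselves, 4 of the 9 genes, Nr3c2, Fkbp5, Zbtb16 and Klf9, were lowest in ibudilast replicate 4 of the ibudilast group and in untreated replicate 3 of the untreated group. Nr3c1 was lowest in ibudilast replicate 3 and untreated replicate 1, and Tsc22d3 in ibudilast replicate 3 and untreated replicate 5. Of 9950 other genes with a mean of at least 5 CPM, the ones most like Nr3c1 over the 10 rats by Pearson r of log2 CPM were Adam10 (0.993), Slk (0.988) and Arl5a (0.987). For Nr3c2 they were Epha4 (0.987), Sipa1l3 (0.985) and Gpr12 (0.985), and for Fkbp5 Tbpl1 (0.959), Rem2 (0.958) and Napa (0.957). These values describe 10 libraries that share group and tissue composition. Without untreated replicate 3 and ibudilast replicate 4 those of Nr3c1 and Nr3c2 were 0.962 to 0.993 and those of Fkbp5 0.794 to 0.831.

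**Figure D3:**
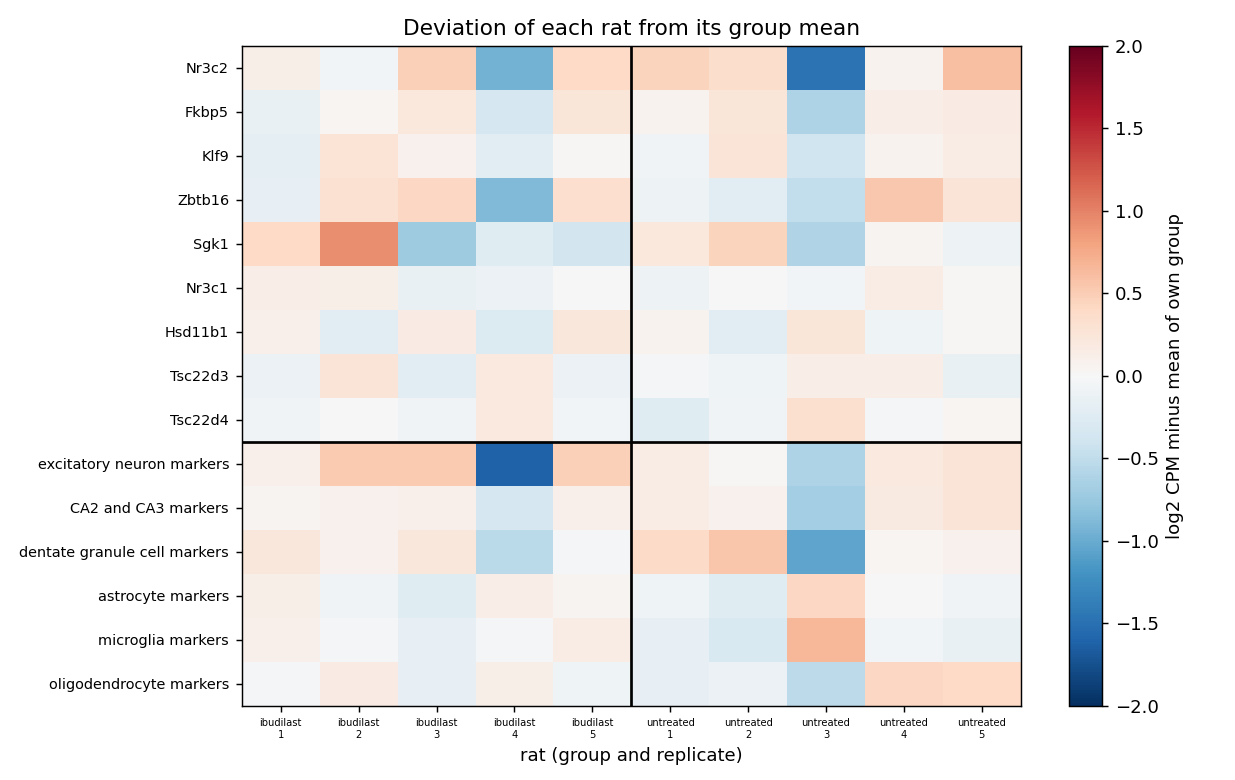
Log2 CPM of each rat minus the mean of its own group, for the 9 genes (top) and the mean of 6 marker lists (bottom), with ibudilast rats on the left. Ibudilast replicate 4 and untreated replicate 3 are blue for Nr3c2, Fkbp5, Klf9 and Zbtb16 and for the excitatory neuron, CA2 and CA3, and dentate granule cell marker lists.

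Coregulators recruited by both receptors were mostly lower in ibudilast rats. Of 12 tested coregulator genes 0 were higher, 8 lower and 4 did not pass, with a median log2 fold change of −0.48 beside 0.02 for all genes tested, of which 22.8% were lower. This list, like the others, was chosen with earlier results of these data known, so its share is not an independent comparison with all genes. Of 14 genes listed, Ncoa3 and Ep300 had no row under those names. The mediator subunit Med14 averaged 37.8 CPM in ibudilast rats and 70.2 CPM in untreated rats and fell by 0.89 ± 0.12 on the log2 scale (SE, adjusted p = 2.71e-04 by edgeR). The p160 coactivators Ncoa2 and Ncoa1 fell by 0.85 ± 0.12 and 0.63 ± 0.11, and Med1, the mediator subunit that contacts nuclear receptors, fell by 0.49 ± 0.09. The chromatin remodeller Smarca4 did not pass, at a log2 fold change of −0.02. Without ibudilast replicate 4 and untreated replicate 3, and with a replicate block, the counts were again 0 higher and 8 lower, and without all 4 libraries that stood apart, and with library size alone, they were 1 higher and 8 lower. Markers of excitatory neurons (4 of 10), microglia (6 of 10) and endothelium (5 of 8) were lower too, with 0 higher in each. Microglia sums were 472 to 567 CPM in ibudilast rats and 589 to 1115 CPM in untreated rats with none at 0, and the part of cell types in the coregulator values was not tested.

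Of 15 receptor chaperones and co-chaperones 2 were higher, 5 lower and 8 did not pass, with a median log2 fold change of −0.12. Over all genes tested 24.3% were higher and 22.8% lower. Without ibudilast replicate 4 and untreated replicate 3 the counts were 2 higher and 8 lower. Without all 4 libraries that stood apart they were 3 and 8, and with a replicate block 2 and 4. Leaving out these libraries also raised the count of all genes that passed, from 5817 to 6601 and 6857. Hsp90ab1, an HSP90 that holds GR ready for hormone, averaged 1233 CPM in ibudilast rats and 1858 CPM in untreated rats and fell by 0.59 ± 0.11 on the log2 scale (SE, adjusted p = 0.00136 by edgeR). The co-chaperone Dnaja1 fell by 0.76 ± 0.13 and the chaperone Hspa8 by 0.51 ± 0.11. Stub1, a ubiquitin ligase that can send unfolded receptor to the proteasome, rose by 0.39 ± 0.08. The other HSP90 gene Hsp90aa1 and the kinase co-chaperone Cdc37 did not pass, at −0.09 and 0.21.

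Of 29 tested genes in a list of other glucocorticoid response genes 6 were higher, 5 lower and 18 did not pass, shares near those of all genes. Their median log2 fold change was 0.14. Gpd1, a glycerol phosphate dehydrogenase that glucocorticoids induce in oligodendrocytes, averaged 321 CPM in ibudilast rats and 150 CPM in untreated rats and rose by 1.09 ± 0.24 on the log2 scale (SE, adjusted p = 0.00415 by edgeR). That call was lost without the 4 libraries that stood apart, untreated replicates 2 and 3 and ibudilast replicates 1 and 4 (0.98, adjusted p = 0.0677). Oligodendrocyte markers were also higher, 6 of 12 with 0 lower, beside 24.3% higher and 22.8% lower for all genes tested. The part of these markers in the Gpd1 value was not tested. The kinase gene Pim3 rose by 0.64 ± 0.12 and the metallothionein gene Mt1a by 0.60 ± 0.14. Rgs2, a regulator of G protein signalling that cAMP also induces, averaged 10.8 CPM in ibudilast rats and 20.5 CPM in untreated rats and fell by 0.93 ± 0.11 (SE, adjusted p = 1.08e-04). The abundant genes Fam107a and Txnip did not pass, at −0.24 and 0.30. Calls among these genes went in both directions.

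**Figure D4:**
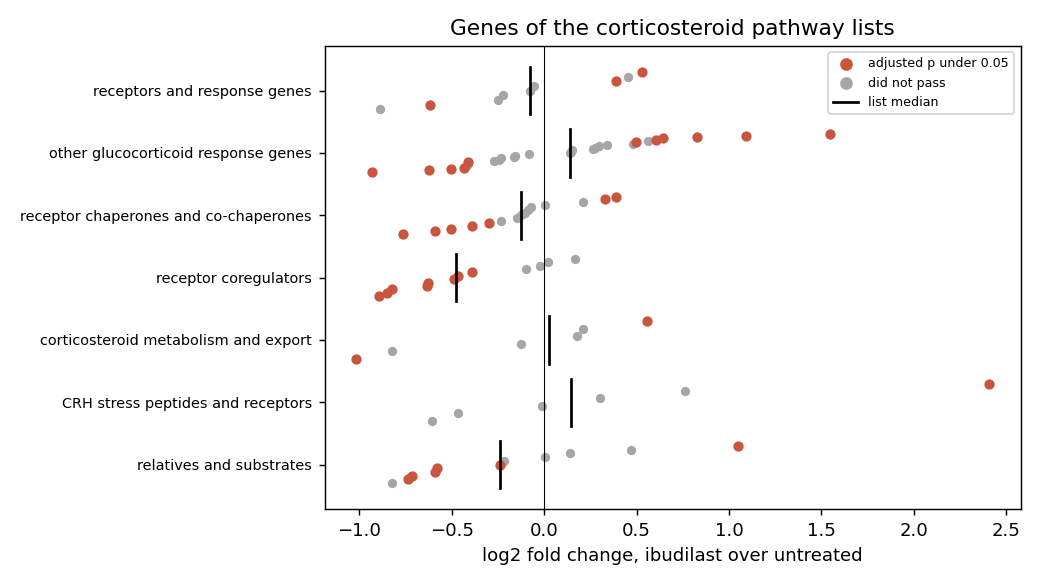
Log2 fold change, ibudilast over untreated, of each tested gene of the 9 receptors and response genes and of 6 further lists; red points passed at an adjusted p under 0.05, and the black line is the list median. Of 12 coregulators 8 are red on the lower side and 0 on the higher side, while the response genes lie on both sides of 0.

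Among 6 tested genes of corticosteroid metabolism and export 1 was higher, 1 lower and 4 did not pass. For all genes tested the shares were 24.3% higher and 22.8% lower. Abcb1a, the P-glycoprotein of the blood-brain barrier that limits entry of some steroids, averaged 38.4 CPM in ibudilast rats and 77.7 CPM in untreated rats and fell by 1.02 ± 0.23 on the log2 scale (SE, adjusted p = 0.00421 by edgeR). Endothelial markers were lower too, 5 of 8 with 0 higher, at sums of 154 to 299 CPM in ibudilast rats and 321 to 595 CPM in untreated rats with none at 0, and their part was not tested. Hsd3b7, a hydroxysteroid dehydrogenase of bile acid synthesis, rose by 0.56 ± 0.08. Srd5a1, the reductase of corticosterone and other steroids, was at 0.21, and H6pd, which supplies the cofactor of the Hsd11b1 enzyme, at 0.18, and neither passed (adjusted p = 0.105 and 0.156 by edgeR). Hsd11b2, the enzyme that inactivates corticosterone in kidney, was under 1 CPM and was not tested.

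Of 6 tested stress peptide and receptor genes 1 was higher, 0 lower and 5 did not pass, beside 24.3% higher and 22.8% lower for all genes. Pomc, the precursor of ACTH, had 3.74, 2.74, 3.84, 33.9 and 3.24 CPM in ibudilast replicates 1 to 5, against 1.74, 0.790, 2.68, 2.05 and 1.70 CPM in untreated replicates 1 to 5. Most of its log2 fold change of 2.41 (adjusted p = 0.0255 by edgeR) came with ibudilast replicate 4, and without that rat it was 0.90 (adjusted p = 0.0333). The call was lost without untreated replicate 1, 2, 4 or 5 (adjusted p = 0.0524 to 0.0594 by edgeR), and by limma-voom (1.70, adjusted p = 0.104). The vasopressin receptor gene Avpr1a, the CRH binding protein gene Crhbp and the CRH receptor gene Crhr2 did not pass, at −0.60, −0.47 and 0.76.

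Among 11 tested relatives and substrates of the 9 genes 1 was higher, 5 lower and 5 did not pass, with a median log2 fold change of −0.24. The shares of all genes tested were 24.3% higher and 22.8% lower. Without ibudilast replicate 4 and untreated replicate 3 the counts were 2 higher and 6 lower. Without all 4 libraries that stood apart they were 2 and 5, and with a replicate block 1 and 4. Sgk2, the SGK kinase found in oligodendrocytes, averaged 4.47 CPM in ibudilast rats and 2.15 CPM in untreated rats and rose by 1.05 ± 0.20 on the log2 scale (SE, adjusted p = 0.00169 by edgeR). The part of oligodendrocyte content, whose markers were also higher, in the Sgk2 value was not tested. Foxo3, a transcription factor that SGK1 phosphorylates and holds out of the nucleus, fell by 0.58 ± 0.12, and Klf13, the closest relative of Klf9, fell by 0.74 ± 0.21. Ndrg1 and Ndrg2 of the NDRG family, whose phosphorylation by SGK1 is used to read its activity, did not pass, at 0.14 and 0.01.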

How the data were processed

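RNA of the left hippocampus of 10 rats was measured, with groups and replicate numbers taken from the sample titles. Libraries were stranded mRNA libraries per the labels' protocols. The authors deposited expected counts per gene symbol, not normalized, and a table of normalized signal, in which the rounded counts were divided by a TMM-scaled library size (100% of values gave whole reads within 0.01). Per the submitters' processing notes, the tools were RSEM 1.2.15, Bowtie2 2.1.0, edgeR and bcl2fastq, on rn6, with no roles stated, and the annotation was not given in the sources used here. Expected counts, 12% of them not whole, were rounded. Of 17168 rows 25 had symbols turned into dates and stayed in the tests unnamed, and 0 rows lacked a name.

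The test was edgeR 4.0.16's quasi-likelihood F test (R 4.3.3) with TMM factors, filterByExpr, robust fitting and p-values adjusted by Benjamini-Hochberg over all 12355 genes that passed the filter, with a threshold of 0.05. The SE is the log2 fold change divided by the square root of F. CPM used TMM-scaled library sizes, and log2 CPM a prior count of 2. Within-rat differences were tested by exact permutation over 252 assignments. DESeq2 1.42.0 and limma 3.58.1 were alternatives. The scripts were tested on simulated data. The 95% intervals are confidence intervals of the log2 fold change from the edgeR fit to 5 rats per group, and not ranges of the rats.

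The 9 genes and all lists were chosen with earlier results of these data known. Named genes were all 9, and of each other list up to 4 by smallest p and up to 2 of the highest mean CPM that did not pass; a gene that this rule names is not reported here. No library pair of a group agreed within sampling noise (lowest chi-square per gene 11.3). Sequences came from RefSeq tables of GRCr8, which differs from the build of the counts.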

Additional observations from a re-analysis of the deposited data

Results flagged for a closer look

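Groups of 5 rats were checked for a rat whose gap to its nearest neighbour took most of the group's range, in 22 groups of values (9 genes and 2 within-rat differences), and 2 were found. Chance gives about 1 in 20. Fkbp5 was at 60.7 CPM in untreated replicate 3, with a gap of 0.740 of the range, while the other untreated rats had 97.4 to 110 CPM. Tsc22d4 was at 203 CPM in ibudilast replicate 4, with a gap of 0.729 of the range, while the other ibudilast rats had 169 to 178 CPM. Both rats had the lowest excitatory neuron marker mean of their group, and the part of that in these values was not tested.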

How the results depend on the processing

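Each result was recomputed under up to 22 alternatives. The calls of Nr3c1 (log2 fold changes of −0.65 to −0.55), Tsc22d3 (0.32 to 0.46) and Tsc22d4 (0.45 to 0.61) held in all 22, with adjusted p-values of at most 0.00435, 0.0414 and 0.0107. Nr3c2 passed by DESeq2 (−0.90, adjusted p = 0.0224), without the 4 libraries named in the report for their markers (−0.91, 0.00323) and without untreated replicate 3 and ibudilast replicate 4 (−0.94), and ran from −1.14 to −0.74 when single rats were left out, where it passed without untreated replicate 3 alone. Hsd11b1 passed with the replicate block (−0.26) and without untreated replicate 2 (−0.33) alone. It ran from −0.33 to −0.20 without single rats, and was at −0.12 without untreated replicate 3 and ibudilast replicate 4 together. Klf9 was at 0.0031 with library size alone and 0.035 without the 4 libraries, and passed in neither. The receptor difference ran from −0.54 to 0.015 and that of Fkbp5 and Fkbp4 from −0.036 to 0.15 without single rats, so their signs are not settled. The cause of these changes was not tested. Fkbp5 (−0.23 to −0.02), Sgk1 (0.15 to 0.60) and Zbtb16 (−0.36 to −0.08) passed in none of the 22.

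The count of changed genes, 5817 of 12355, ran from 4726 with the replicate block to 6857 without the 4 libraries. Replicate numbers did not pair the rats: correlations of same-numbered deviations were −0.328 to 0.416, and 1 of 10 rats correlated best with its own number. Glul and Map3k6, counted among the other response genes, lost their calls in 10 alternatives each, and Mertk and Pomc in 7 each. DESeq2 gave no adjusted p for 110 genes. The spread of 5 rats limits what can be shown for Nr3c2, Sgk1 and Zbtb16, which varied by 25.7% to 48.4% within groups.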
